A study of Mus musculus with 6 samples.

Results

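The 42 genes described here are 24 collagen chains and 18 other matrix and cell surface genes, namely fibronectin, vitronectin, fibrillin, the matricellular proteins, the heparan sulfate proteoglycans perlecan and agrin, the 4 syndecans and 2 small leucine-rich proteoglycans. They were chosen by gene symbol, with earlier results of these data known. In the count tables they were found through their Ensembl identifiers, as 42 of 55335 genes counted. RNA came from B16-BL6, a mouse melanoma line, as 3 cultures of scrambled control cells (replicates 1, 2 and 3) and 3 cultures of IFNγR1KO cells (replicates 10, 11 and 12), all grown in the same serum-containing medium, with no cytokine treatment named for these cultures. Both kinds of cell had received the lentiCRISPR v2 vector, puromycin selection and growth from single cells, and they differ in the guide, which targets GFP in scrambled control cells and exon 1 of Ifngr1 in IFNγR1KO cells. The sample labels give the genotype of the controls as WT, while the series' design text calls them scramble, and neither they nor the study's methods say how many clones the cultures came from. The study does state that it worked with single IFNγR1KO clones rather than mixtures, and that cells were plated in triplicate for RNA. An effect of the guide therefore cannot be told apart from a difference between clones. The p-values below measure the spread between these cultures, which may be technical.

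Collagens are trimers of chains that wind into a triple helix. Fibrillar types build the fibers that give tissue its strength, type IV forms the network of basement membranes, and the fibril-associated types (FACIT, fibril-associated collagens with interrupted triple helices) sit on the fiber surface. Matricellular proteins are secreted into the matrix and mainly signal to cells through integrins and other receptors, whereas syndecans are transmembrane proteoglycans that carry heparan sulfate and act as coreceptors for growth factors and matrix. In tumors much of the fibrillar collagen is made by fibroblasts, and melanoma cells are known to secrete SPARC, osteopontin and fibronectin. In a bulk culture, fewer cells that make a transcript and less of it per cell cannot be told apart.

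The libraries held between 6698956 and 10579788 counts on genes, and every IFNγR1KO library held fewer than every scrambled control library. Levels are given as CPM, counts scaled per library by the total of the tested genes and its TMM factor to a common total, so that 1 count was worth 0.0966 to 0.109 CPM in scrambled control and 0.135 to 0.142 CPM in IFNγR1KO libraries. Ifngr1, the targeted gene, was counted 154, 144 and 172 times in scrambled control libraries against 80, 85 and 82 times in IFNγR1KO libraries (log2 fold change -0.47, adjusted p = 0.0729), so the RNA level alone did not separate the genotypes at the threshold. Scrambled control 3 and IFNγR1KO 12 stood somewhat apart from the other libraries of their groups, and across genes scrambled control 3 was closer to IFNγR1KO 12 (Pearson r 0.967) than to IFNγR1KO 10 (0.947) or 11 (0.955). Both were the highest of their group in 28.7% of tested genes and in 7 of the 26 member genes tested (26.9%), and results that rest on them are given with and without both. Of 9 melanocyte lineage markers, 8 had counts (Ednrb was at 0), summing to 31848 to 34781 CPM in scrambled control and 28070 to 32986 CPM in IFNγR1KO libraries. Fibroblast markers summed to 66.4 to 77.8 CPM and 59.3 to 69.0 CPM, with Lum, Dpt, Thy1 and Twist2 at 0 in every library and none of the 3 that could be tested called. The sums came from Pdgfra, Pdgfrb, Fap and Pdpn. At an unadjusted p under 0.05 in edgeR, 1 tested fibroblast marker was higher and 1 lower. Endothelial, leukocyte and keratinocyte markers did not exceed a sum of 1.99 CPM in any library, and Cdh5, Kdr, Tek, Cd3e, Itgam and Krt10 were at 0.

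In IFNγR1KO cells 7 of 14 tested collagen genes were called higher than in scrambled control cells (adjusted p under 0.05). Called lower were 2 of 4 tested syndecans and 2 of 5 tested matricellular genes. Among all tested genes 7.73% were called higher and 7.62% lower. The calls of Col4a2, Col9a1 and Thbs1 did not hold with every library left out in turn, and those of Col1a1 and Col2a1 rest on few counts. The collagens that rose were Col1a1, Col1a2, Col2a1, Col5a3, Col4a2, Col15a1 and Col9a1, by log2 fold changes of 0.64 to 2.12. Osteopontin (Spp1) fell 2.68-fold, syndecan-3 (Sdc3) 3.49-fold, syndecan-1 (Sdc1) 1.94-fold and thrombospondin-1 (Thbs1) 1.75-fold. Sparc, by far the most abundant of the 42 transcripts, had a log2 fold change of 0.02 (95% interval -0.32 to 0.35).

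Genes were called at a Benjamini-Hochberg adjusted p under 0.05 in edgeR's quasi-likelihood test, adjusted over all 13642 genes tested, and a called gene was a DEG where its level changed by more than 1 on the log2 scale either way. Among all tested genes, 7.73% (1054) were called higher and 7.62% (1039) lower, a split that became 1174 and 755 when libraries were scaled by their totals only. The filter on low counts kept 26 of the 42 members, of which 7 were called higher (26.9%), 4 lower (15.4%) and 15 neither way. DEGs made up 3.25% of tested genes in the higher and 1.96% in the lower direction, and among members they were Col1a1, Col1a2, Col2a1 and Col5a3 (higher) and Spp1 and Sdc3 (lower). The median log2 fold change of the tested members was 0.29, beside -0.0015 over all tested genes. Because members were chosen with earlier results of these data known, these shares and medians describe this list only. By class, 7 of 14 tested collagens were called higher and 0 lower, with a median of 0.72, while 0 of 12 tested members of other classes were called higher and 4 lower, with a median of -0.02. At an unadjusted p under 0.05 in this fit, 0 of the 14 tested collagen members were lower, and 3 members of other classes (Fn1, Postn and Agrn) were higher. Outside the members, the type IV chain Col4a4 was lower at that level and is described with the other collagens. DESeq2's Wald test called 0 collagens lower and 0 members of other classes higher. These counts cover only members that passed the filter, and Col1a1, Col2a1 and Col7a1 passed it through the IFNγR1KO libraries, so a difference in that direction helped Col1a1 and Col2a1 into the test. The groups did not overlap in 15 tested members, with IFNγR1KO libraries above in 10 and below in 5, and in 32.6% of all tested genes.

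**Figure D1:**
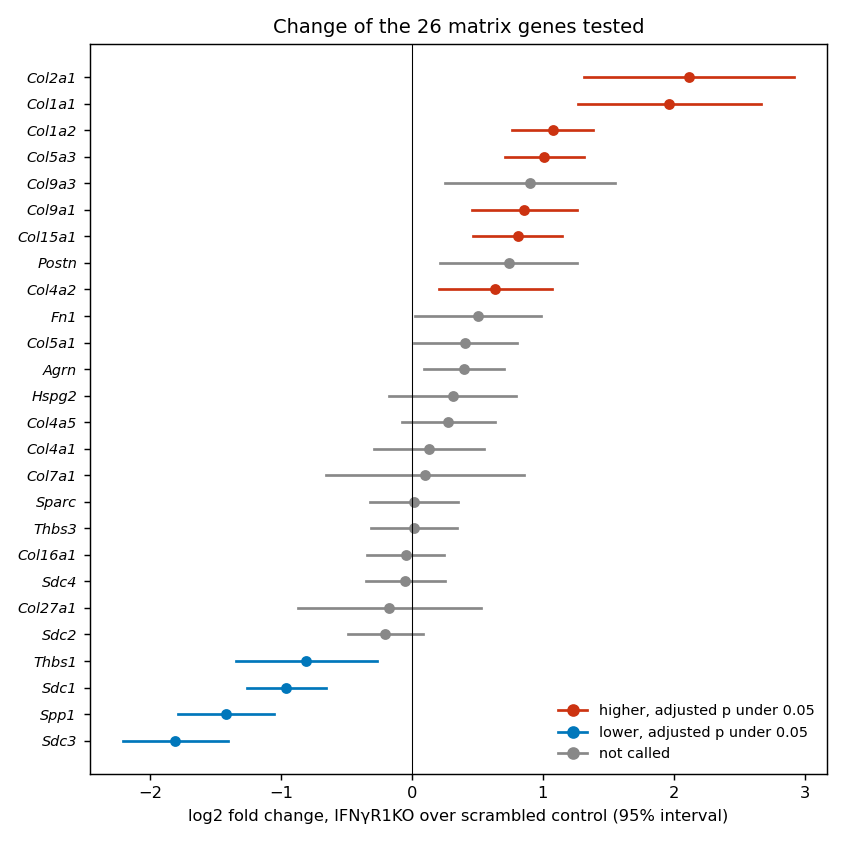
Log2 fold change of the 26 tested members, IFNγR1KO over scrambled control, with 95% intervals from the fit across all genes (n = 3 libraries per group). Red points are members called higher, all of them collagens, blue points are members called lower, and grey points were not called.

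The remaining 16 members were not tested. Col5a2, Col4a6, Col6a2, Vtn, Tnc and Bgn had no count in any of the 6 libraries, where the limit that a count of 0 allows (3 counts) corresponds to 0.290 to 0.326 CPM in scrambled control and 0.406 to 0.426 CPM in IFNγR1KO libraries. This limit, like every statement on low counts here, covers counting error only. A further 6 (Col3a1, Col6a1, Col6a3, Col12a1, Fbn1 and Dcn) never exceeded 3 counts, so that 12 of the 42 genes were at or under this floor everywhere. Thus Col6a1, Col6a2 and Col6a3, chains of the beaded-filament type VI collagen of connective tissue, and the small leucine-rich proteoglycans decorin and biglycan were hardly detectable at this depth. Col11a1, Col9a2, Col18a1 and Thbs2 had more counts and are described with their classes.

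Per kilobase of exonic length, the level of Sparc averaged 568 CPM per kb over the 6 libraries. Sparc, a secreted collagen-binding glycoprotein, alone held 64.4% to 69.8% of the counts of the 42 genes in each library. Next came Spp1 at 60.2, Sdc4 at 23.7, Sdc1 at 16.8, Sdc2 at 16.3 and agrin (Agrn) at 14.4 CPM per kb. The collagens with the highest levels were Col16a1 (12.7 CPM per kb), Col4a1 (10.8), Col4a2 (10.4) and Col1a2 (7.35), whereas Col1a1 averaged 0.497 and Col2a1 0.246 CPM per kb. In every library the 42 genes together took 0.296% to 0.363% of all gene counts.

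**Figure D2:**
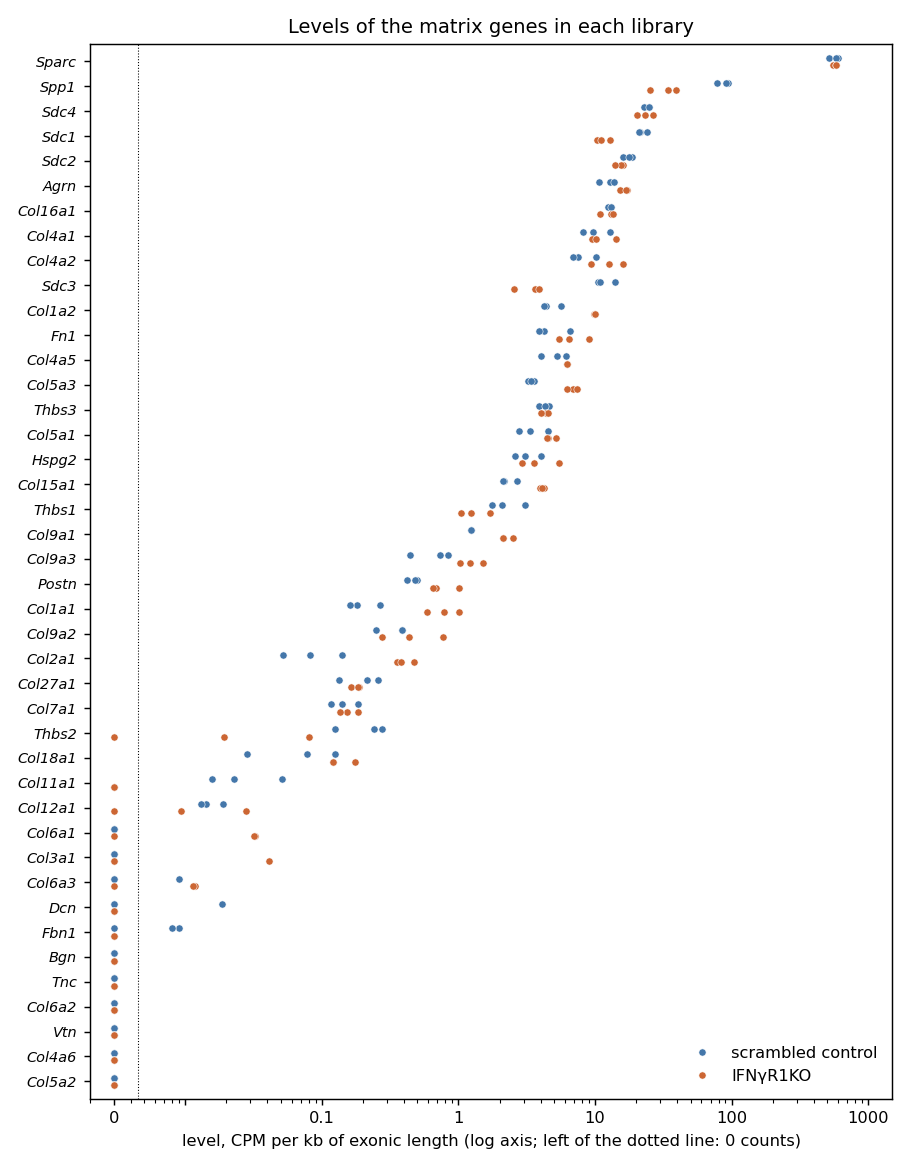
Level of each of the 42 genes in every library, in CPM per kb of exonic length on a log axis, ordered by the mean over the 6 libraries, with 0 counts drawn left of the dotted line. Sparc lies above every other member in all libraries, and the 6 genes at the bottom have no count in any of them.

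To show the DNA next to the start sites, the 250 bases upstream of the RefSeq start are printed for 4 called genes, Col5a3 and Col9a1 (higher) and Spp1 and Sdc3 (lower). They were picked after their values were known, and for a gene with several start sites the most upstream window is shown. Windows were matched by symbol for 33 of the 42 members and 8 of the 11 called members. Sequences are from RefSeq on GRCm38.p6, 5′ to 3′ on the strand of the gene, with capitals for matches on either strand to the CCAAT box, the GC box (GGGCGG), the TATA box core (TATAAA) and the AP-1 motif (TGACTCA). They lie at chr9:20815068-20815317 on the minus strand for Col5a3 and, on the plus strand, at chr1:24177360-24177609 for Col9a1, chr5:104434861-104435110 for Spp1 and chr4:130792287-130792536 for Sdc3.
Col5a3: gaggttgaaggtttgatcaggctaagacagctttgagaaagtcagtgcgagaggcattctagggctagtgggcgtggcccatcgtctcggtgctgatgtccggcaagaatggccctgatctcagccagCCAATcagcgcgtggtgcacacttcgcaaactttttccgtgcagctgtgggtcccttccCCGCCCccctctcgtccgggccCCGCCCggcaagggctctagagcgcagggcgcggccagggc
Col9a1: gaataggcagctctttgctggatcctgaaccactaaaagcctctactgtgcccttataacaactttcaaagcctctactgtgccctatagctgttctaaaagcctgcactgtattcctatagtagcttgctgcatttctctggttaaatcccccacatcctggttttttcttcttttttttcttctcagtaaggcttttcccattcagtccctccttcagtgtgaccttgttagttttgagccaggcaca
Spp1: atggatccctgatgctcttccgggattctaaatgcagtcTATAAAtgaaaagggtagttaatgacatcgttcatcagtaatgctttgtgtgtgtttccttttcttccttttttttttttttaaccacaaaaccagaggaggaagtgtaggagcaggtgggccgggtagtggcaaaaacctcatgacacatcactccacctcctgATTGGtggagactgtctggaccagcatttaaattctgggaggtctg
Sdc3: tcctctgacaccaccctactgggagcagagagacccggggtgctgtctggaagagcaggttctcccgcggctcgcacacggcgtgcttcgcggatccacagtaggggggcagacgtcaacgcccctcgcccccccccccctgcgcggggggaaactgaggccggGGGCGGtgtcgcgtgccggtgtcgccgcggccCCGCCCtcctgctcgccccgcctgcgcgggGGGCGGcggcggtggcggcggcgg
Their GC content was 62.8% for Col5a3, 43.6% for Col9a1, 43.6% for Spp1 and 76.4% for Sdc3. The Sdc3 window held 3 GC box matches, the Col5a3 window 1 CCAAT box and 2 GC boxes, and the Spp1 window 1 TATA box core and 1 CCAAT box. The printed Col9a1 window held no match, although another of its RefSeq windows has a CCAAT box. Of 32851 RefSeq windows of this length, 33.8% held the CCAAT box, 32.7% the GC box, 12.4% the TATA box core and 4.46% the AP-1 motif. Among the 40 windows of members, 14 held the CCAAT box, 25 the GC box, 7 the TATA box core and 1 the AP-1 motif. These matches describe letters in a window and are not binding sites.

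Fibrillar collagens held 4 of the 7 calls. Type I collagen, the main fibrillar collagen of skin and bone, is usually a trimer of 2 chains from Col1a1 and 1 from Col1a2. Col1a2 (chromosome 6, 4504814 to 4541544, plus strand, GRCm38) was at 69.5, 54.6 and 52.5 CPM in scrambled control 1, 2 and 3 and at 122, 124 and 125 CPM in IFNγR1KO 10, 11 and 12. All IFNγR1KO libraries lay above all scrambled control libraries, and they differed less among themselves than the controls did. On the log2 scale Col1a2 rose by 1.07 (standard error 0.14, adjusted p = 0.000476). Col1a1 (chromosome 11, 94936224 to 94953042, plus strand) was rare, with 16, 12 and 11 counts in scrambled control and 27, 38 and 47 in IFNγR1KO libraries, or 1.33 ± 0.357 and 5.20 ± 1.39 CPM (SD, n = 3 each). The groups did not overlap, and the change of 1.96 (log2 scale; SE 0.32, adjusted p = 0.00175) rests on these few counts. Per kilobase, Col1a2 was counted 21.1 to 26.1 times as often as Col1a1 in scrambled control and 9.97 to 16.9 times in IFNγR1KO libraries. The chain that is more numerous in the usual trimer was thus the rarer transcript in every library.

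Col2a1, the chain of cartilage type II collagen, was also near the detection limit in scrambled control cells (chromosome 15, 97975602 to 98004695, minus strand). It had 7, 13 and 5 counts there and 23, 32 and 25 in IFNγR1KO libraries, which is 0.845 ± 0.412 against 3.71 ± 0.559 CPM (SD, n = 3 each). No IFNγR1KO library was as low as any scrambled control library. The increase of 2.12 (log2 scale; SE 0.37, adjusted p = 0.00246) was the largest among the tested members. Col2a1 passed the filter on low counts through the IFNγR1KO libraries, where it was higher, so this rank depends on that filter. Col5a3, a chain of type V collagen, which joins the fibrils of type I, gave far more counts (chromosome 9, 20770050 to 20815067, minus strand). Its levels were 24.3, 21.9 and 23.1 CPM in scrambled control and 47.2, 42.3 and 50.3 CPM in IFNγR1KO libraries, with a wide gap between the groups (log2 fold change 1.01, standard error 0.14, adjusted p = 0.000604).

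Its partner chain Col5a1 was at 28.6, 23.5 and 38.7 CPM in scrambled control and 38.4, 37.9 and 44.1 CPM in IFNγR1KO libraries. Here the highest control reached into the range of the IFNγR1KO libraries, and the gene was not called (log2 fold change 0.41, 95% interval 0.02 to 0.80, adjusted p = 0.154). The ratio of Col5a1 to Col5a3 per kilobase was 0.860 to 1.34 in scrambled control and 0.652 to 0.720 in IFNγR1KO libraries. Col5a2, whose chain joins that of Col5a1 in the common type V trimer, had no counts. Col27a1 lay between 1.74 and 3.37 CPM and was not called. Col11a1 had 6, 2 and 3 counts in scrambled control and 0 in every IFNγR1KO library, too few for a fold to be given, since the floor of 3 counts in an IFNγR1KO library exceeds the mean scrambled control level of 0.380 CPM. Without the filter on low counts its adjusted p was 0.0589.

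Among collagens of basement membrane and anchoring structures, 2 of 5 tested were called higher. Type IV collagen trimers of 2 chains from Col4a1 and 1 from Col4a2 are found in nearly all basement membranes, and the genes lie head to head on chromosome 8, with annotated ends that overlap by 22 bases. Col4a2 (11312805 to 11449287, plus strand) was at 49.3, 45.8 and 66.9 CPM in scrambled control and 62.2, 84.1 and 106 CPM in IFNγR1KO libraries. Scrambled control 3 exceeded IFNγR1KO 10, so the groups overlapped, and the call was close to the threshold (log2 fold change 0.64, standard error 0.20, adjusted p = 0.0477). It was lost when scrambled control 1, scrambled control 2, IFNγR1KO 11 or IFNγR1KO 12 was left out (adjusted p up to 0.200) and with RLE size factors or library totals only, whereas without scrambled control 3 and IFNγR1KO 12 together the adjusted p was 0.00349. Col4a1 (11198423 to 11312826, minus strand) was at 61.2, 72.4 and 96.6 CPM in scrambled control and 70.8, 75.3 and 106 CPM in IFNγR1KO libraries. Its groups overlapped almost completely, with a log2 fold change of 0.13 (95% interval -0.29 to 0.55, adjusted p = 0.717). Both genes were highest in scrambled control 3 and IFNγR1KO 12 within their groups. The ratio of Col4a1 to Col4a2 per kilobase fell in a range of 1.10 to 1.40 in scrambled control and of 0.794 to 1.01 in IFNγR1KO libraries.

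Col15a1, a multiplexin of the basement membrane zone, was at 17.0, 13.7 and 13.5 CPM in scrambled control and 26.7, 24.9 and 25.9 CPM in IFNγR1KO libraries (chromosome 4, 47208161 to 47313167, plus strand). The groups were clearly apart (log2 fold change 0.81, standard error 0.16, adjusted p = 0.00476). The related multiplexin Col18a1, the source of endostatin, had only 2 to 9 counts per library in either group and was not tested. Col4a5, another type IV chain, lies on chromosome X next to Col4a6, 1308 bases away and head to head with it. Col4a5 was at 35.2, 27.1 and 41.5 CPM in scrambled control and 41.9, 42.0 and 41.9 CPM in IFNγR1KO libraries (log2 fold change 0.28, adjusted p = 0.290), while Col4a6 had no counts. Col7a1, the anchoring fibril collagen of skin, lay between 1.19 and 1.90 CPM and was not called.

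Of the FACIT collagens, Col9a1, a chain of the type IX collagen on the surface of cartilage fibrils, rose (chromosome 1, 24177610 to 24252684, plus strand). The scrambled control libraries had 58, 63 and 65 counts, all within 6.28 ± 0.0141 CPM (SD, n = 3), a spread below what counting error alone would give on average. In IFNγR1KO libraries the counts were 76, 94 and 76, or 11.4 ± 1.15 CPM (SD, n = 3). Every IFNγR1KO library was above the controls, and on the log2 scale it rose by 0.86 (standard error 0.19, adjusted p = 0.00838). Without IFNγR1KO 11 the adjusted p was 0.0532. Col9a3, a second chain of type IX, was at 2.58 ± 0.805 and 4.82 ± 0.951 CPM (SD, n = 3 each) and was not called (log2 fold change 0.90, adjusted p = 0.0597), although its groups did not overlap. The other chain, Col9a2, had 11, 12 and 8 counts against 6, 10 and 17 and was not tested. Col16a1, the most abundant collagen per kilobase, had a log2 fold change of -0.05 (adjusted p = 0.861), with libraries between 72.7 and 90.5 CPM. Col12a1 had 0 to 3 counts per library.

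**Figure D3:**
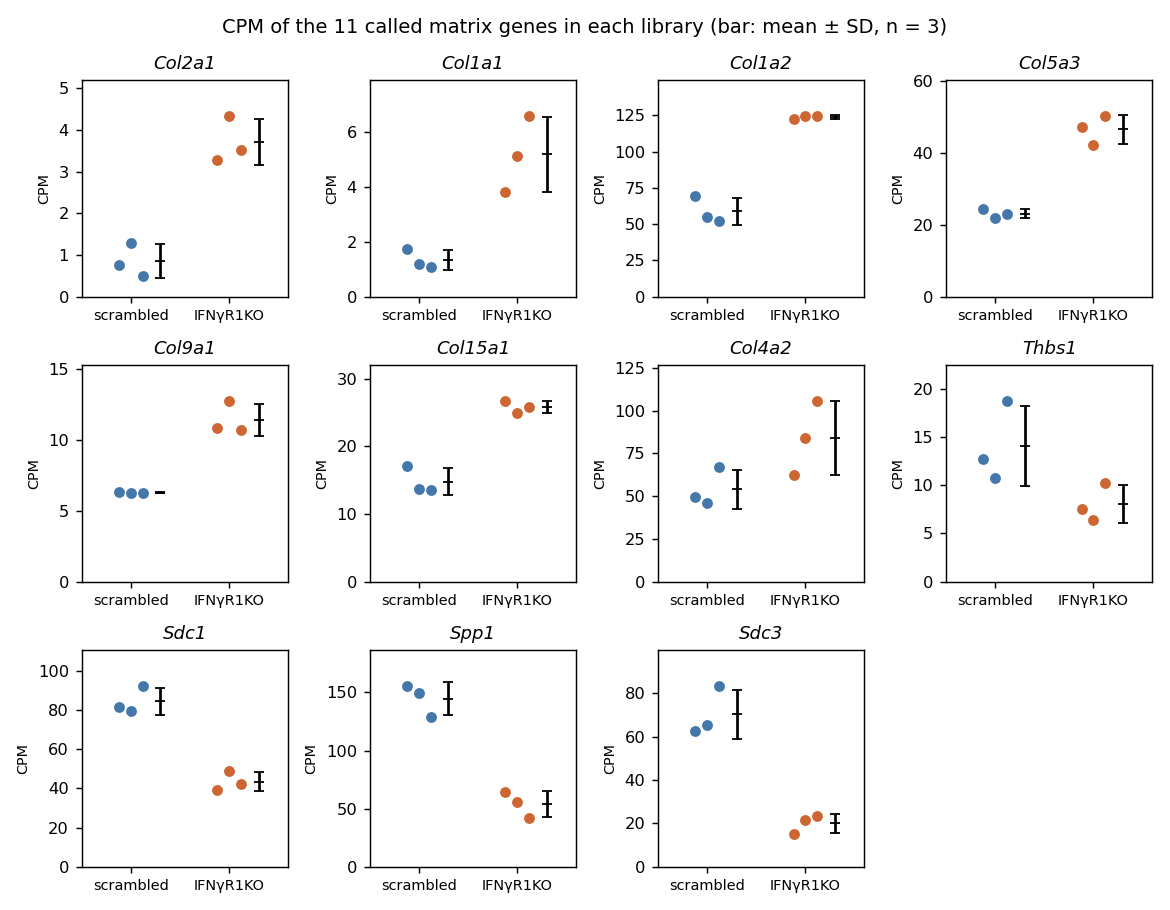
CPM of the 11 called members in each library, with the mean ± SD of 3 libraries beside the points and an axis from 0 in each panel. Col4a2 is the only one of these genes in which a scrambled control library lies above an IFNγR1KO library although the gene was called higher, and in Thbs1 the lowest control (10.7 CPM) and the highest IFNγR1KO library (10.3 CPM) nearly meet.

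Summed over all 24 collagen members, the level was 397 ± 38.4 CPM in scrambled control and 563 ± 55.7 CPM in IFNγR1KO libraries (SD, n = 3 each). The lowest IFNγR1KO sum (511 CPM) was above the highest scrambled control sum (436 CPM).

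Among matricellular genes, Spp1, which encodes the secreted integrin and CD44 ligand osteopontin, fell in all IFNγR1KO libraries (chromosome 5, 104435118 to 104441050, plus strand). It was counted 1431, 1503 and 1331 times in scrambled control and 453, 413 and 296 times in IFNγR1KO libraries, or at 145 ± 14.1 and 54.0 ± 11.5 CPM (SD, n = 3 each). The lowest control was at 129 CPM and the highest IFNγR1KO library at 64.4 CPM. On the log2 scale Spp1 fell by 1.42 (standard error 0.17, adjusted p = 0.000218). The annotation places a second gene, Gm42793, over 18.8% of the Spp1 exons on the same strand, and reads there may not have been assigned to Spp1.

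Thbs1, an adhesive glycoprotein that can activate latent TGF-beta, was at 12.7, 10.7 and 18.7 CPM in scrambled control and 7.53, 6.37 and 10.3 CPM in IFNγR1KO libraries (chromosome 2, 118111876 to 118127133, plus strand). The groups were separated by a narrow gap (log2 fold change -0.81, standard error 0.25, adjusted p = 0.0454). Leaving out any 1 library except IFNγR1KO 12 took the call away, that is without scrambled control 1, 2 or 3 or IFNγR1KO 10 or 11, with adjusted p-values up to 0.197. It was also lost with library totals only and with a filter of at least 50 counts in 3 libraries. Thbs2, a related thrombospondin, had 8, 17 and 20 counts in scrambled control and 0, 1 and 4 in IFNγR1KO libraries and did not pass the filter. Its groups did not overlap, and fits that included it gave a log2 fold change of -2.66 (adjusted p = 0.00125, edgeR without the filter) and -2.70 (adjusted p = 0.0342, DESeq2). Thbs3, the third thrombospondin of the list, was at 20.5 ± 1.79 and 20.7 ± 1.19 CPM (SD, n = 3 each; adjusted p = 0.966). Sparc had 17930, 22860 and 22679 counts against 14760, 16119 and 15718, and its CPM values overlapped (adjusted p = 0.961). Periostin (Postn), an integrin ligand, was at 4.06 ± 0.349 and 6.79 ± 1.67 CPM (SD, n = 3 each) and was not called (log2 fold change 0.74, adjusted p = 0.0577), though its groups did not overlap. Tenascin-C (Tnc) was at 0 counts.

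Fibronectin (Fn1), the main adhesive glycoprotein that integrins bind, was counted 456, 453 and 797 times in scrambled control and 444, 555 and 751 times in IFNγR1KO libraries, or at 57.2 ± 17.3 and 81.3 ± 21.9 CPM (SD, n = 3 each). In CPM scrambled control 3 lay above IFNγR1KO 10 and 11, and the gene was not called (log2 fold change 0.51, adjusted p = 0.152). Without scrambled control 3 its adjusted p was 0.00970, and without scrambled control 3 and IFNγR1KO 12 together 0.00519. Agrin was at 119, 98.5 and 127 CPM against 141, 159 and 155 CPM, with no overlap, and just missed the threshold (log2 fold change 0.40, 95% interval 0.10 to 0.71, adjusted p = 0.0737). Perlecan (Hspg2), the other basement membrane heparan sulfate proteoglycan, ranged from 36.8 to 57.2 and from 42.1 to 78.3 CPM (adjusted p = 0.398).

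The 4 syndecans are the transmembrane members, and 2 of them fell. Sdc3, the syndecan best known from neural tissue, was at 62.5, 65.2 and 83.3 CPM in scrambled control and 15.2, 21.8 and 23.3 CPM in IFNγR1KO libraries (chromosome 4, 130792537 to 130826319, plus strand). The highest IFNγR1KO library was far below the lowest control. Its change of -1.80 (log2 scale; SE 0.18, adjusted p = 6.67e-05) had the smallest adjusted p of all members. Sdc1, the main syndecan of epithelial cells, was at 81.5, 79.3 and 92.1 CPM against 39.2, 48.6 and 42.3 CPM, again without overlap (chromosome 12, 8771323 to 8793715, plus strand; log2 fold change -0.96, standard error 0.14, adjusted p = 0.000846). Sdc2 was at 61.5 ± 4.90 and 53.5 ± 3.50 CPM (SD, n = 3 each), a difference of -0.20 on the log2 scale (95% interval -0.49 to 0.09, adjusted p = 0.353). It was not called, though its groups did not overlap, with the lowest control at 56.2 CPM and the highest IFNγR1KO library at 56.0 CPM. Sdc4, found at focal adhesions, was at 61.4 ± 2.88 and 59.3 ± 7.74 CPM (SD, n = 3 each; log2 fold change -0.05, 95% interval -0.35 to 0.25, adjusted p = 0.857). The intervals of Sdc2 and Sdc4 do not reach those of Sdc1 and Sdc3, whose upper ends were -0.66 and -1.41.

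The sum of the 4 syndecans went from 278 ± 21.4 CPM in scrambled control to 176 ± 14.3 CPM in IFNγR1KO libraries (SD, n = 3 each). Sdc1 and Sdc3 together made up 52.7% to 58.3% of the sum in scrambled control and 32.2% to 39.3% in IFNγR1KO libraries, with no overlap. An antisense gene, Gm26716, lies over 7.73% of the Sdc3 exons. The strand setting of the counting is not given in the sources used here.

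**Figure D4:**
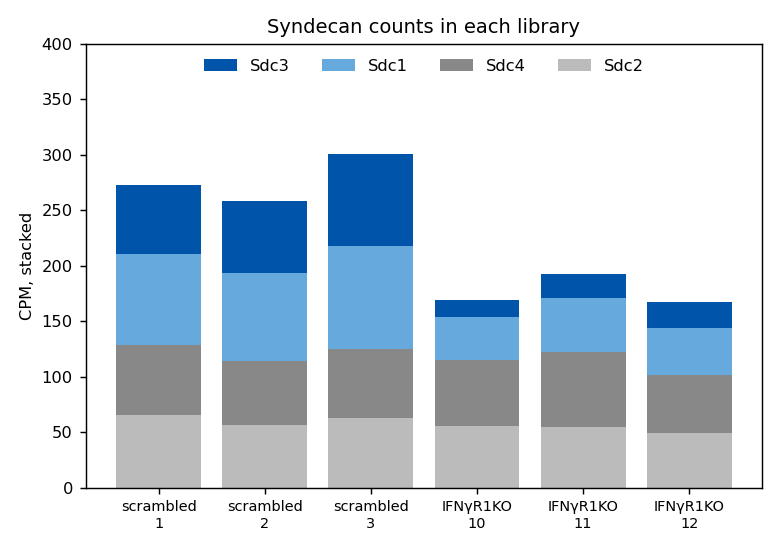
CPM of the 4 syndecan genes stacked for each of the 6 libraries. The segments of Sdc1, Sdc3 and Sdc2 are smaller in each of the 3 IFNγR1KO libraries than in each scrambled control library, for Sdc2 by a small amount. Those of Sdc4 overlap between the groups.

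When scrambled control 3 and IFNγR1KO 12 were both left out, the 11 called members kept their calls, and Agrn, Col4a5, Col5a1, Col9a3 and Fn1 were called higher as well. That made 12 members higher and 4 lower, where 10.5% and 11.8% of all genes tested in that fit were called higher and lower. The adjusted p was 0.00893 for Agrn, 0.0447 for Col4a5, 0.0116 for Col5a1 and 0.0260 for Col9a3. Fn1 and Col5a1 were also among the 7 tested members in which both of these libraries were the highest of their groups, with Col4a1, Col4a2, Hspg2, Thbs1 and Sdc3. Of the 11 calls, those of Col1a1, Col1a2, Col2a1, Col5a3, Col15a1, Spp1, Sdc1 and Sdc3 held with each of the 6 libraries left out in turn, and those of Col9a1, Col4a2 and Thbs1 did not.

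Genes that act on the same molecules were compared in 7 further lists with 201 genes in all, of which 112 were tested, 8 called higher (7.14%, beside 7.73% of all tested genes) and 14 lower (12.5%, beside 7.62%). These lists too were chosen with earlier results of these data known. For the synthesis, folding and export of collagen, 1 of 26 tested genes was called higher and 4 lower, with a median log2 fold change of -0.03. Fkbp10, a prolyl isomerase of the endoplasmic reticulum that helps type I procollagen fold, had 176, 190 and 213 counts in scrambled control and only 22, 25 and 37 in IFNγR1KO libraries. It fell without overlap from 19.5 ± 0.917 to 3.90 ± 1.13 CPM (SD, n = 3 each; log2 fold change -2.32, adjusted p = 2.96e-05). Crtap, a subunit of the prolyl 3-hydroxylation complex, and the isomerase Fkbp9 fell by 0.52 and 0.51 on the log2 scale (adjusted p = 0.0250 and 0.0380), and Plod1, a lysyl hydroxylase, by 0.50 (adjusted p = 0.0423). These last 3 calls were weak, since each was lost when scrambled control 2, scrambled control 3, IFNγR1KO 10 or IFNγR1KO 11 was left out and with library totals only, with adjusted p up to 0.154 for Crtap, 0.183 for Fkbp9 and 0.201 for Plod1. Mia2, which takes part in the export of large cargo from the endoplasmic reticulum, rose by 0.67 (adjusted p = 0.00343).

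Among the 20 other collagen genes only 4 were tested, and Col20a1 was called higher (1.90 ± 0.422 against 4.54 ± 0.779 CPM, SD, n = 3 each; log2 fold change 1.26, adjusted p = 0.0121, and 0.0702 without IFNγR1KO 11). Of 6 tested genes for the processing and crosslinking of collagen outside the cell, 0 were called by edgeR, although 1 was higher and 1 lower at an unadjusted p under 0.05, and DESeq2 called 1 lower (Pcolce, an enhancer of procollagen cleavage, named after its values were seen; adjusted p = 0.0547 in edgeR and 0.0272 in DESeq2). Other matrix glycoproteins and proteoglycans gave 2 higher and 5 lower of 21 tested, with a median of -0.36. Ccn4, a WNT-induced matricellular protein, rose by 1.25 (adjusted p = 0.000205) and the glypican Gpc4 by 1.02 (adjusted p = 0.0178) on the log2 scale. The call of Gpc4 was lost without scrambled control 1, scrambled control 2 or IFNγR1KO 10 (adjusted p up to 0.0927). Ecm1 fell by 1.09 (adjusted p = 0.000822), brevican (Bcan) by 1.11 (adjusted p = 0.00121) and Sparcl1, a relative of Sparc, by 0.87 (adjusted p = 0.00215). The basement membrane linker Nid2 and Ccn2 were the remaining calls and were lower too, named here after their values were seen.

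For heparan sulfate, the chain that syndecans carry, 1 of 19 tested genes of its synthesis and editing was higher and 3 were lower. Sulf2, which removes sulfate groups from heparan sulfate outside the cell, fell from 56.1 ± 11.1 to 18.9 ± 4.29 CPM (SD, n = 3 each; log2 fold change -1.57, adjusted p = 0.000283). Xylt2, which starts the chain, and Hs2st1 were lower by smaller amounts (log2 fold change -0.64 and -0.44, adjusted p = 0.0203 and 0.0418), and heparanase (Hpse) was higher (0.45, adjusted p = 0.0289). Leaving out IFNγR1KO 10, IFNγR1KO 11 or scrambled control 2 ended all 3 of these calls, leaving out scrambled control 3 those of Hs2st1 and Hpse, and leaving out scrambled control 1 that of Hs2st1 (adjusted p up to 0.0784 for Xylt2, 0.190 for Hs2st1 and 0.12 for Hpse). Hs2st1 was also not called with library totals only, nor Hpse without the filter on low counts. Of 21 tested receptors for matrix, 2 were higher and 1 was lower. Ddr2, a receptor tyrosine kinase that binds fibrillar collagen, was at 126, 110 and 123 CPM in scrambled control and 297, 281 and 285 CPM in IFNγR1KO libraries. That is a log2 fold change of 1.27 (adjusted p = 8.14e-05), with tight groups far apart. The laminin-binding integrin chain Itga7 rose from 5, 9 and 3 counts to 35, 22 and 21 (log2 fold change 2.63, adjusted p = 0.00158), while the collagen-binding chain Itga1 fell by 0.77 on the log2 scale (adjusted p = 0.0149), a call lost without IFNγR1KO 10 or IFNγR1KO 11 (adjusted p up to 0.0745). In scrambled control libraries Itga7 was at 0.543, 0.895 and 0.290 CPM, under the filter limit of 1.19 CPM. It entered the test through the IFNγR1KO libraries, in which it was higher. Of 15 tested TGF-beta genes, Ltbp4, which binds latent TGF-beta to the matrix, rose by 1.05 (adjusted p = 0.00747) and the receptor Tgfbr2 fell by 0.61 (adjusted p = 0.0240), with a median of -0.26. Ltbp4 was not called without scrambled control 2 (adjusted p = 0.0531), and Tgfbr2 was not called without scrambled control 2 or IFNγR1KO 10 (adjusted p up to 0.12) or with library totals only. Scrambled control 3 and IFNγR1KO 12 were both the highest of their group in 14 of the 21 tested receptors and 10 of the 15 tested TGF-beta genes (66.7% each), beside 28.7% of all tested genes. Without both libraries the adjusted p was 0.0160 for Itga1, 0.000587 for Ltbp4 and 0.0107 for Tgfbr2.

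**Figure D5:**
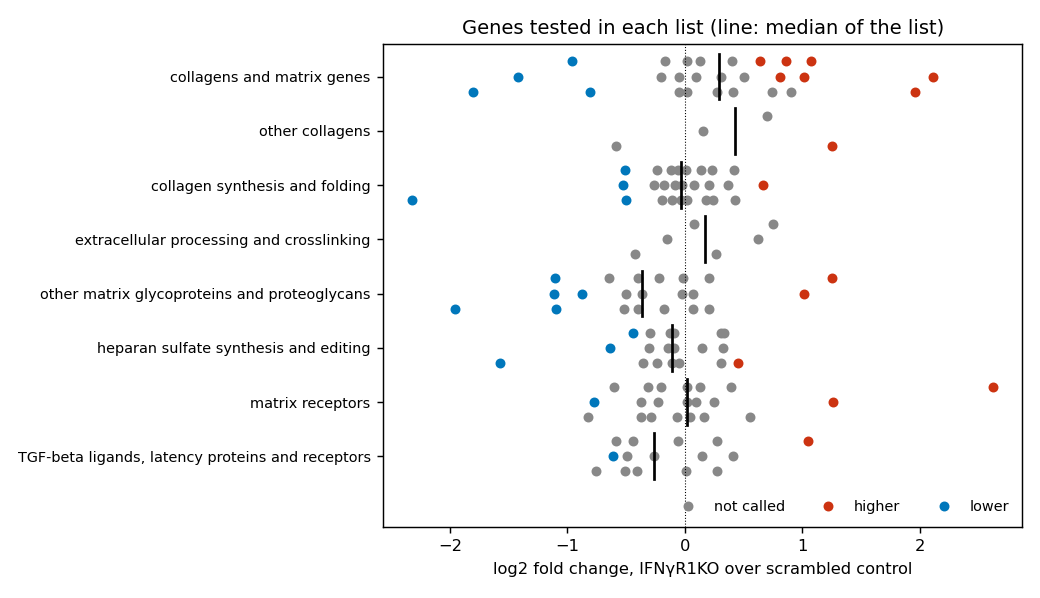
Log2 fold change of every tested gene of the 42 members and of the 7 further lists, with the median of each list as a black line. Called genes are colored by direction (red higher, blue lower, grey not called), with 7 members to the right and 4 to the left in the top line.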

How the data were processed

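RNA of 3 scrambled control and 3 IFNγR1KO cultures of B16-BL6 cells was enriched by poly(A) selection and sequenced with paired-end reads. The authors used STAR 2.7.5a for alignment to GRCm38 and HTSeq 0.11.2 to count reads per gene, and deposited these raw counts neither normalized nor filtered. The annotation release and strand setting are not given in the sources used here. Groups came from the sample labels. Symbols, positions and exonic length were taken from GENCODE M21, which holds 55154 of the 55335 identifiers, 54587 of them in the same version. HTSeq's summary rows (53.0% to 54.0% of all rows' counts, no_feature being the main one) were left out of library sizes and tests.

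Counts were compared in R 4.3.3 with edgeR 4.0.16: filterByExpr (minimum count 10, minimum total 15), TMM normalization, and the two-sided quasi-likelihood test with Benjamini-Hochberg adjustment over 13642 genes, at an adjusted p of 0.05. All adjusted p-values are from this test unless DESeq2 is named. DESeq2 1.42.0 with the Wald test, the study's own choice, was an alternative, with others on scaling, filtering, the test and left-out libraries. Standard errors and 95% intervals came from the quasi-likelihood F statistic. Library pairs differed beyond sampling noise and were kept as separate replicates, which does not show that they are independent. IFNγR1KO 10 and 11 were the closest pair, with a chi-square per gene of 2.75. The other pairs within a group had 10.2 to 25.1. Across the groups, scrambled control 3 and IFNγR1KO 12 had 21.3. By this measure scrambled control 3 was farther from scrambled control 1 (25.1) and 2 (22.6) than from IFNγR1KO 12. By Pearson r it was nearer to scrambled control 1 and 2 (0.982 and 0.984) than to IFNγR1KO 12 (0.967). The tests were tested on simulated counts. The members and lists were chosen with earlier results of these data known, and lists were described by counts and medians with no test of the list. Within members, those called and the 10 tested but not called with the highest level per kilobase were named with values, others by range or level, and in each other list up to 3 genes per direction by smallest adjusted p. Plod1, Nid2, Ccn2, Pcolce, Col4a4, the values given for Col9a3, Postn and Thbs2, and the choice of printed windows lie outside that rule. Of the list symbols, 6 were matched through synonyms.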

Additional observations from a re-analysis of the deposited data

How the results depend on the processing

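The labels state no pairing of libraries across the groups, and no paired analysis was run. The fit had no covariate, so anything that scrambled control 3 and IFNγR1KO 12 may share was not modeled. For 50 genes (the tested members, the named genes of the further lists except Col4a4, and Ifngr1), 640 values were computed under the alternatives. Of these, 570 kept their side of the threshold, 54 lost the call, 16 gained one, and 0 turned direction with a call. Leaving out 1 library at a time gave 535 to 1372 genes higher and 457 to 1452 lower over all genes, 5 to 9 members higher and 3 to 5 lower, 2 to 4 member DEGs lower, and 5 to 11 genes higher and 7 to 26 lower in the 7 further lists. The extremes of 26 and of 4 member DEGs came without IFNγR1KO 12. Without scrambled control 3 and IFNγR1KO 12 together, an alternative chosen after seeing the data, there were 1617 genes lower, 12 members higher, and 13 genes higher and 22 lower in the further lists. A filter of at least 50 counts in 3 libraries left 230 DEGs higher and 144 lower, and 2 member DEGs higher, since Col1a1 and Col2a1 were not tested. Testing against a log2 fold change of 1 left 84 and 50 DEGs, with 0 members higher and 1 (Sdc3) lower. Scaling by library totals only gave 9 genes lower in the further lists and lost Col4a2 and Thbs1. Col4a2 was also lost with RLE size factors, and Thbs1 with the filter of 50 counts. The cause of the other shifts was not tested. Depth limits mainly Col1a1, Col2a1, Thbs2 and Col11a1 and, in the further lists, Itga7 and Col20a1, with at most 47 counts in any library. Col20a1 was likewise not tested with the filter of at least 50 counts in 3 libraries.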
